A study of Mus musculus with 12 samples.

Results

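The leukocyte adhesion molecules described here are 9 genes of the 24422 features counted in 12 RNA-seq libraries from mouse adipose tissue: Alcam, Vcam1, Icam1, Icam2, Jam2, Madcam1, Sele, Selp and Selplg. The 9 were taken by gene symbol, and each, Alcam and the other 8, was found and passed the filter on low counts. The other 8 were chosen for their role, with earlier results of these data known. Alcam was chosen by its measured level, which was higher on the high-fat diet in these same libraries. Its diet difference is therefore a description with no test, and its differences from either diet control reuse the libraries that chose it.

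The libraries form 4 groups of 3. The first group is p21+/mcherry mice on Standard Diet, called SD mCherry here (replicates 1, 2 and 3), and the second is p21+/mcherry mice on High Fat Diet, HFD mCherry (replicates 15, 17 and 20). The other two groups were also on High Fat Diet and were p21+/mcherry-Tert, HFD Tert (replicates 25, 26 and 27), and p21+/mcherry-TertCi, HFD TertCi (replicates 30, 31 and 33). Tert is the catalytic subunit of telomerase and TertCi its catalytically inactive form, placed under the promoter of p21 (Cdkn1a, a cell cycle inhibitor). The study asked how expression of either form from that promoter alters transcription in the stromal vascular fraction, the vascular, immune and precursor cells of fat. Every group carried a knock-in at p21, so none is wild type there, and Tert or TertCi can be expected only in cells whose p21 promoter is active. No Tert or TertCi mice were on the standard diet, so the diet difference is known for mCherry mice only. The design text of the series names the high-fat control p21+/-, where the sample labels say p21+/mcherry, and the labels were followed. Age, sex, fat depot and any pooling of animals are not given in the labels, and where libraries are not from separate animals the p-values measure only the spread between libraries.

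White blood cells leave the blood by a sequence of contacts with the vessel wall. Selectins on endothelial cells (Sele and Selp) catch passing cells through glycoproteins such as Selplg, and the cells then stop on immunoglobulin-family molecules: Icam1 and Icam2 bind integrins that contain Itgb2, Vcam1 binds the integrin of Itga4 and Itgb1, and Madcam1 binds that of Itga4 and Itgb7. Jam2 sits at endothelial junctions, and Alcam, found on several cell types, binds Cd6 on lymphocytes and other Alcam molecules. Inflammatory cytokines are known to raise Vcam1, Icam1 and Sele in endothelium through NF-kB, and crowding of macrophages in fat is a known feature of obesity.

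The levels of Icam1, Sele and Selp varied together from library to library, as given further on, so the 250 bases before their start sites are shown first. The sequences are from RefSeq, build GRCm38.p6, and 5 of the 9 members had an entry (Alcam, Icam1, Sele, Selp and Madcam1). Capitals mark matches, on either strand, to 4 patterns. They are the kappaB-like pattern GGNNNTTCC, which was chosen after the sequences were seen, the TATA pattern TATAAA, the GC box, written GGGCGG, and the AP-1 pattern, written TGANTCA, and no matches shown overlap. The windows are chr9:21015690-21015939 on the plus strand for Icam1, chr1:164047984-164048233 on the plus strand for Sele and chr1:164115014-164115263 on the plus strand for Selp.
Icam1: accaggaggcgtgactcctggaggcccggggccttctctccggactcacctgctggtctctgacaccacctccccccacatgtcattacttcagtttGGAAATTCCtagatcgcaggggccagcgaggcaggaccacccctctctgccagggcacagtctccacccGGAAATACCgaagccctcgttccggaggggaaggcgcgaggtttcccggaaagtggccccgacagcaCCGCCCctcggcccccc
Sele: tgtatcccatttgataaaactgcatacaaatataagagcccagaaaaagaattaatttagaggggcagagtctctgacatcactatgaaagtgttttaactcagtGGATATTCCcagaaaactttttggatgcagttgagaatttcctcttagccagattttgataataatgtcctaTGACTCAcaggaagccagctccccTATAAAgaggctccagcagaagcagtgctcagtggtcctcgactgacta
Selp: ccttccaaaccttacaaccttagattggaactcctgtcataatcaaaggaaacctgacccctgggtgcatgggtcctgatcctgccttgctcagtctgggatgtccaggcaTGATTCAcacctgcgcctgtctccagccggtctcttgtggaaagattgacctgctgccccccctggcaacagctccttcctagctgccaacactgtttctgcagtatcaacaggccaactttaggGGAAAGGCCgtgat

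Each of these 3 windows held a match to GGNNNTTCC, a pattern found in 15.7% of the 32851 promoters of the same length. In Icam1 the matches lay 153 to 145 and 84 to 76 bases before the start, in Sele 145 to 137 bases before it, and in Selp 14 to 6 bases before it. Sele also held TATAAA, 49 to 44 bases before the start, which 12.4% of promoters hold, and Sele and Selp each held TGANTCA, which 6.75% hold. Icam1 held 1 GC box, a pattern of 32.7% of promoters. The Madcam1 window also held 2 matches to GGNNNTTCC, 83 to 75 and 70 to 62 bases before the start, and the r of Madcam1 was low with the 4 abundant members (from -0.233 to 0.0206 with Vcam1, Icam1, Sele and Selp over 12 libraries). The Alcam window held 2 GC boxes and none of the other 3 patterns, and 69.2% of its bases were G or C against 40.4% in Sele, 53.6% in Selp, 65.2% in Icam1 and a median of 52.4% over all promoters. A match is a run of letters and no evidence of binding.

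The libraries held 16430330 to 19486965 counts. Reads of the added mCherry_Tert feature numbered 0 in each of the 6 mCherry libraries and 33 to 86 in the 6 knock-in libraries, as labelled. The labels call the material stromal cells, and the summed CPM (counts scaled to library size, with TMM factors) of 10 adipose progenitor markers ran from 2635 to 20941, of 14 endothelial markers from 1123 to 6007 and of 12 macrophage markers from 993 to 6903. Crisp1, an epididymis gene, stood at 641 CPM or more in 8 libraries and under 1 CPM in the other 4 (SD mCherry replicate 2, HFD mCherry replicate 20, HFD Tert replicate 27 and HFD TertCi replicate 31), which is 1 library of each group. In bulk RNA, fewer cells of a type and less RNA per cell cannot be told apart.

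Levels of the members spanned most of the range of expressed genes. Per length, Icam1 had the highest mean over the 12 libraries (493 RPKM, rank 81 of 16028 genes), followed by Selp (379 RPKM, rank 109), Sele (269 RPKM, rank 171) and Vcam1 (148 RPKM, rank 339). Jam2 stood at 24.7 RPKM, Icam2 at 15.2, Selplg at 10.6 and Alcam at 5.26, and Madcam1, the addressin of gut vessels, at 0.293 RPKM with 0 to 16 counts in a library. The 4 most abundant members together took 0.209% of all counts in SD mCherry replicate 1 and 1.26% in HFD TertCi replicate 31. The plot of member levels shows each library.

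**Figure D1:**
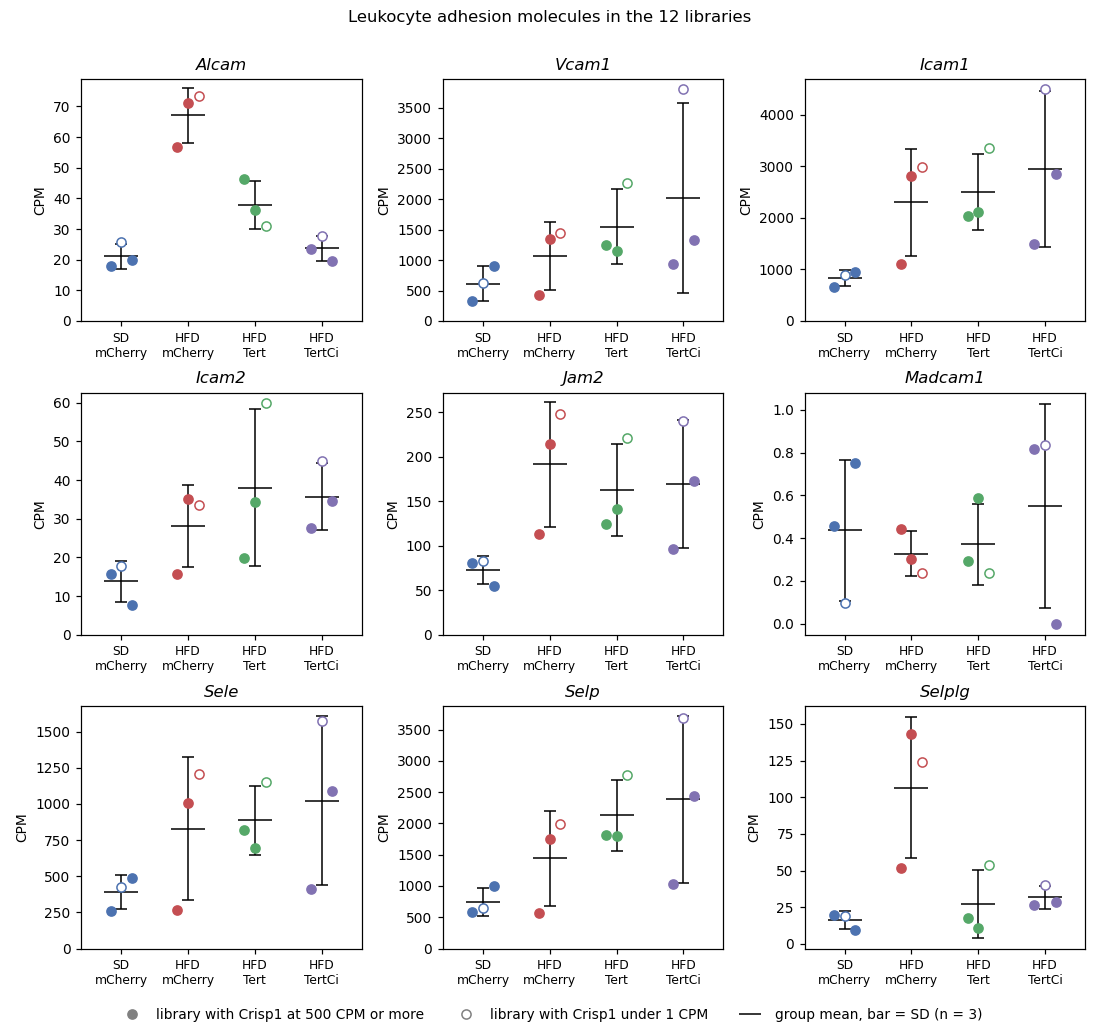
Level of each adhesion molecule (CPM, linear axis) in the 12 libraries by group; points are libraries, open where Crisp1 was under 1 CPM, dashes are group means and bars the SD (n = 3). HFD mCherry stands above every other library in Alcam, where its lowest library was at 56.9 CPM, while Vcam1, Icam1, Sele and Selp share a low library in HFD mCherry and a high one in HFD TertCi.

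Alcam, the adhesion receptor that binds Cd6, had a different order of groups from the rest. In SD mCherry it stood at 17.8, 25.7 and 19.8 CPM, in HFD mCherry at 56.9, 71.1 and 73.3, in HFD Tert at 46.3, 36.2 and 31, and in HFD TertCi at 23.6, 27.7 and 19.7. The HFD mCherry libraries were the 3 highest of the 12 and the HFD Tert libraries the next 3, while SD mCherry and HFD TertCi overlapped at the bottom. As counts, Alcam ran from 341 to 1227, so counting error is small beside the gap between HFD mCherry and SD mCherry or HFD TertCi. It is not small beside the gap between HFD Tert replicate 27 (528 counts, 31 CPM) and HFD TertCi replicate 31 (431 counts, 27.7 CPM).

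Group means of Alcam were 67.1 ± 8.89 CPM in HFD mCherry (SD, n = 3), 37.8 ± 7.76 for HFD Tert, 23.7 ± 4.0 for HFD TertCi and 21.1 ± 4.13 in SD mCherry. As a description, HFD mCherry was 3.18-fold above SD mCherry (log2 fold change 1.67 ± 0.23, SE). Against HFD mCherry the log2 fold change was -0.83 ± 0.22 for HFD Tert and -1.50 ± 0.23 for HFD TertCi, with no overlap between libraries in either. Neither passed edgeR's quasi-likelihood test with Benjamini-Hochberg adjustment over 16713 genes (adjusted p = 0.195 and 0.138). With DESeq2 both did (adjusted p = 0.0364 and 1.45e-05), and without HFD mCherry replicate 15 the HFD TertCi difference did in edgeR (adjusted p = 0.0276). Both also passed in edgeR with the mean level of epididymis and epithelium markers as a covariate (adjusted p = 0.0454 and 0.00818). That covariate fit called 1238 and 649 genes in these comparisons, where the fit without it called 0 and 2. Because these comparisons share the HFD mCherry libraries whose high Alcam chose the gene, their values are not independent of that choice.

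HFD Tert against HFD TertCi is the comparison of Alcam that uses no library of the diet difference. All 3 HFD Tert libraries were above all 3 HFD TertCi libraries, by 1.6-fold (log2 fold change 0.67, 95% interval 0.18 to 1.17). This difference had an unadjusted p of 0.0124 and an adjusted p of 1 in edgeR, and so did not pass. HFD Tert was also above SD mCherry in every library (log2 fold change 0.84 ± 0.22), whereas HFD TertCi overlapped SD mCherry, with an interval of the log2 difference from -0.33 to 0.66.

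Adipose progenitor, macrophage, lipid-associated macrophage, and platelet and megakaryocyte markers had Alcam's order of groups. Set out as HFD mCherry, HFD Tert, HFD TertCi and SD mCherry, the mean summed level was 16235, 6390, 5249 and 3656 CPM for adipose progenitors. In the same order it was 5053, 1676, 1597 and 1279.5 CPM for macrophages, and 5069, 1297.5, 1051 and 671 CPM for lipid-associated macrophages. For platelets and megakaryocytes it was 183.8, 157.6, 154.8 and 108.6 CPM. Single libraries departed from that order. Macrophage markers summed to 1193 to 1366 CPM in SD mCherry and 2703 to 6903 in HFD mCherry, and to 993 to 2820 in HFD Tert, whose Alcam was above that of SD mCherry throughout. In HFD Tert replicates 25 and 26 the macrophage markers summed to 1213 and 993 CPM, beside Alcam at 46.3 and 36.2 CPM. Endothelial markers summed to 2118 to 3877 CPM in HFD mCherry and 2780 to 6007 in HFD TertCi, whose Alcam was the lower. Alcam's own log2 CPM minus the mean log2 CPM of the endothelial markers ran from -1.30 to -0.83 in HFD mCherry, from -2.05 to -1.65 in SD mCherry, from -3.15 to -1.55 for HFD Tert, and from -3.29 to -2.43 for HFD TertCi. Relative to the macrophage markers it ran from -2.06 to -1.09 in HFD mCherry, from -1.54 to -1.01 in SD mCherry, from -1.93 to 0.11 for HFD Tert, and from -1.61 to -1.08 for HFD TertCi, so on that scale the 4 groups overlapped. Over the 12 libraries Pearson's r of Alcam was 0.73 with the adipose progenitor list, 0.72 with the macrophage list and 0.32 with the endothelial list, and 0.17, 0.048 and 0.081 after the group means were removed. These lists' part in Alcam's level was not tested.

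**Figure D2:**
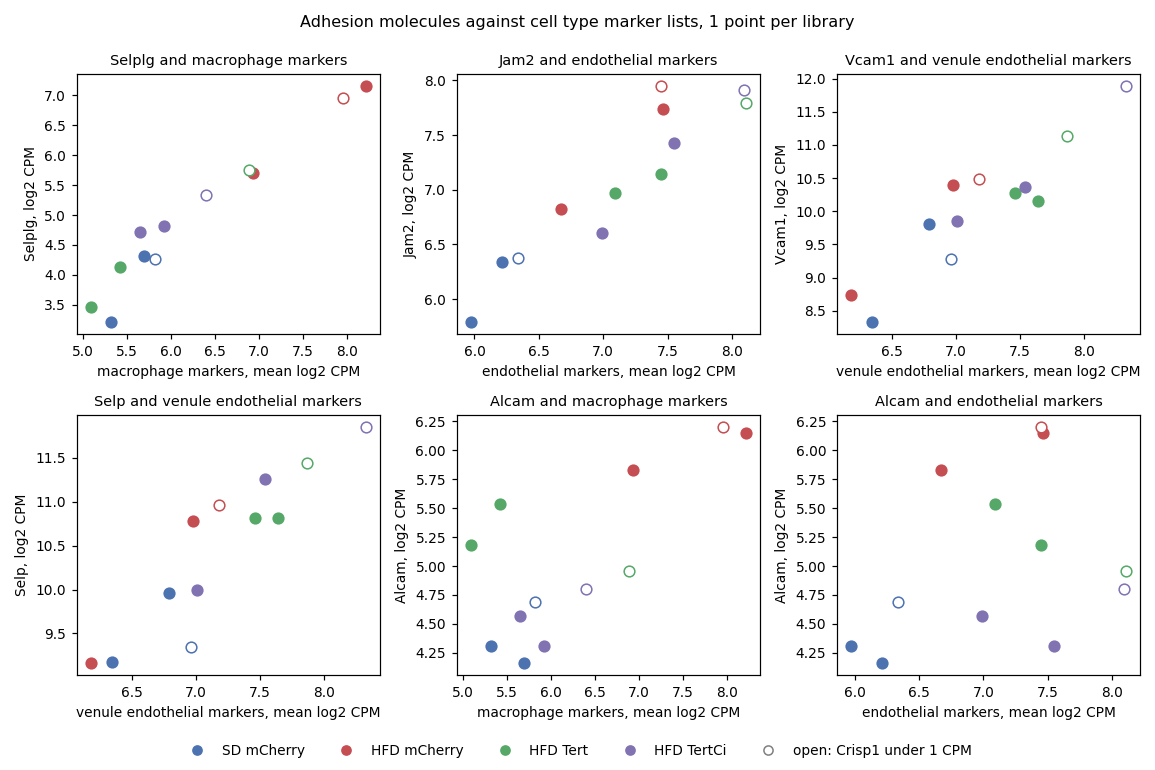
Log2 CPM of a member (vertical) against the mean log2 CPM of a marker list (horizontal), 1 point per library, coloured by group and open where Crisp1 was under 1 CPM. Selplg followed macrophage markers and Jam2 endothelial markers, while Alcam was high for the macrophage markers in HFD Tert replicates 25 and 26, not in replicate 27, and in HFD TertCi low for their endothelial markers.

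By the rule of highest correlation of log2 CPM with Alcam over the 12 libraries, among 15302 genes whose mean reached 1 CPM, the 5 most alike were Phlda1 (r = 0.981), Ereg (0.951), Med12l (0.944), Galnt7 (0.925) and Vav3 (0.891). Phlda1, which codes for a pleckstrin homology-like protein, stood at 142 ± 17.3 CPM in SD mCherry and 283 ± 27 in HFD mCherry, and at 199 ± 21.4 in HFD Tert and 160 ± 13.6 for HFD TertCi (SD, n = 3). Ereg, the EGF receptor ligand epiregulin, stood at 2.90, 7.42 and 2.72 CPM in SD mCherry and at 28.1, 124 and 141 CPM in HFD mCherry. It was at 10.8 to 11.9 CPM in HFD Tert and at 3.21 to 12.5 CPM in HFD TertCi, so only its HFD mCherry libraries stood clear of every other group.

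Most of that likeness lay between groups for some of these genes. With group means removed, r with Alcam stayed at 0.841 for Vav3, at 0.828 for Phlda1 and at 0.755 for Ereg. It was 0.365 for Med12l and 0.263 for Galnt7. The most opposite genes were Ppp5c (r = -0.877), Scaper (-0.871) and Ttc23 (-0.852). Ppp5c, a protein phosphatase gene, stood at 41.8 ± 1.02 CPM in HFD mCherry and 53.1 ± 3.92 in SD mCherry (SD, n = 3). These correlations describe libraries that share groups, depth and cell make-up, and the genes were picked for them, so no test is attached.

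**Figure D3:**
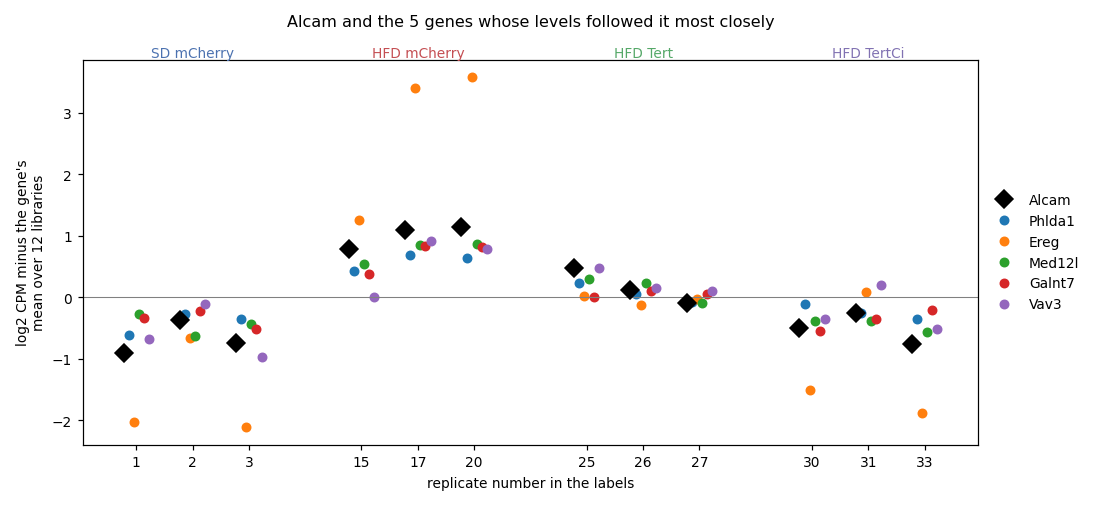
Log2 CPM of Alcam (diamonds) and of the 5 genes most correlated with it (dots), each relative to its own mean over the 12 libraries, by group and replicate number. In HFD mCherry replicates 17 and 20 all 6 genes were above their mean, and Ereg had the widest range, from 2.72 to 141 CPM.

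Vcam1 (chr3:116109949-116129688, minus strand, GRCm38), the receptor for Itga4 integrins, was abundant and uneven. It stood at 323, 622 and 897 CPM in SD mCherry, at 425, 1346 and 1441 in HFD mCherry, at 1241, 1144 and 2260 in HFD Tert, and at 930, 3802 and 1324 in HFD TertCi. HFD mCherry replicate 15 lay within the SD mCherry range, so the diet groups overlapped, while both knock-in groups lay wholly above SD mCherry. The log2 fold change was 0.80 ± 0.62 for diet (adjusted p = 0.431), 0.53 ± 0.62 for HFD Tert against HFD mCherry (adjusted p = 0.692) and 0.92 ± 0.63 for HFD TertCi against HFD mCherry (adjusted p = 0.515), all in edgeR. Without HFD TertCi replicate 31 the last of these was 0.07, and without HFD mCherry replicate 15 the HFD Tert value was 0.15.

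Icam1 (chr9:21015985-21028817, plus strand, GRCm38), the ligand of Itgb2 integrins, was the most abundant member. Its levels were 664, 891 and 950 CPM in SD mCherry, 1115, 2815 and 2998 in HFD mCherry, 2030, 2116 and 3352 in HFD Tert, and 1494, 4508 and 2852 in HFD TertCi. All 9 high-fat diet libraries were above all 3 of SD mCherry, and the 3 high-fat diet groups overlapped one another. Against SD mCherry, HFD mCherry was 2.77-fold higher (log2 fold change 1.47 ± 0.47, adjusted p = 0.115 in edgeR), which did not pass. It did with DESeq2 (adjusted p = 0.0262) and in edgeR without HFD mCherry replicate 15 (adjusted p = 0.0278). For diet these settings called 1988 and 2082 genes, where edgeR on all libraries called 8. An antisense gene, Gm47079, overlaps 11.7% of Icam1's exon bases, and since use of strand is not given in the sources used here, reads there cannot be assigned to either gene.

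Icam2 (chr11:106377656-106388075, minus strand), which resting endothelium carries, was far lower. It stood at 15.8, 17.9 and 7.65 CPM in SD mCherry and at 15.8, 35.1 and 33.5 in HFD mCherry, with 19.8, 34.3 and 60.0 in HFD Tert and 27.6, 44.9 and 34.7 in HFD TertCi. The diet groups overlapped through HFD mCherry replicate 15, and both knock-in groups were above SD mCherry in every library. The diet difference was 1.03 ± 0.46 on the log2 scale (adjusted p = 0.205, edgeR).

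Jam2 (chr16:84774123-84825928, plus strand), the junction molecule, separated the diets. Its levels were 81.1, 83.2 and 55.1 CPM in SD mCherry, 113, 214 and 248 in HFD mCherry, 125, 141 and 221 in HFD Tert, and 96.6, 240 and 173 in HFD TertCi. Every high-fat diet library was above every SD mCherry library. The diet difference was 2.62-fold (log2 fold change 1.39 ± 0.39, adjusted p = 0.0895 in edgeR, 0.0166 with DESeq2), and the knock-in groups differed from HFD mCherry by -0.24 ± 0.39 and -0.17 ± 0.39 (adjusted p = 0.786 and 0.860). Jam2 followed the 14 endothelial markers (r = 0.926 over 12 libraries, 0.964 with group means removed). Relative to the mean log2 CPM of those markers it was 0.16 to 0.51 in HFD mCherry, -0.18 to 0.13 in SD mCherry, -0.32 to -0.12 in HFD Tert and -0.40 to -0.12 in HFD TertCi, so the HFD mCherry libraries were highest on that scale.

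Madcam1 was at or near the detection limit. Its counts were 9, 2 and 13 in SD mCherry, 8, 5 and 4 in HFD mCherry, 5, 11 and 4 in HFD Tert, and 16, 13 and 0 in HFD TertCi. The intervals of its log2 differences were wide, for diet from -2.91 to 2.12, and no difference was detectable at this depth. A count of 0 allows up to 3 counts, or 0.15 CPM, in HFD TertCi replicate 33, counting error only.

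The endothelial selectins Sele and Selp lie near each other on chromosome 1 and followed each other closely (r = 0.965, 0.980 with group means removed). Sele (chr1:164048234-164057677, plus strand), made by endothelium that cytokines have activated, stood at 259, 423 and 487 CPM in SD mCherry, 269, 1006 and 1207 in HFD mCherry, 819, 692 and 1154 in HFD Tert, and 410, 1571 and 1089 in HFD TertCi. HFD mCherry replicate 15 and HFD TertCi replicate 30 lay within the SD mCherry range, and the HFD Tert libraries all lay above it. Its diet difference was 1.09 ± 0.58 on the log2 scale (adjusted p = 0.266, edgeR).

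Selp (chr1:164115264-164150026, plus strand), which endothelium and platelets store in granules, stood at 579, 653 and 996 CPM in SD mCherry and at 573, 1757 and 1989 in HFD mCherry. It was at 1810, 1797 and 2777 in HFD Tert and at 1025, 3679 and 2446 in HFD TertCi. HFD mCherry replicate 15 was the lowest of the 12 libraries, and both knock-in groups lay wholly above SD mCherry. The log2 difference was 0.95 ± 0.53 for diet, 0.56 ± 0.53 for HFD Tert against HFD mCherry and 0.73 ± 0.53 for HFD TertCi against HFD mCherry (adjusted p = 0.285, 0.609 and 0.539, edgeR). Opposite-strand genes overlap 9.93% (Gm16548) and 4.21% (Gm16587) of its exon bases. Of 8 platelet and megakaryocyte markers 7 were tested, their summed level was 76.2 to 226 CPM over all libraries, and Selp had r = 0.642 with that list (0.565 with group means removed). Platelet RNA's part in the Selp level was not tested.

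Vcam1, Icam1, Sele and Selp formed a block. Over the 12 libraries their pairwise r ran from 0.919 to 0.965, and with group means removed from 0.920 to 0.980, so the likeness held among replicates of a group. HFD mCherry replicate 15 was the lowest of its group and HFD TertCi replicate 31 the highest of its group for each of the 4. Vcam1 followed the 5 venule endothelial markers (Ackr1, Lrg1, Nr2f2, Ephb4 and Vwf), with r = 0.919, and 0.937 with group means removed. For Icam1, Sele and Selp r with that list was 0.824, 0.853 and 0.912. With the general endothelial list r was 0.845 for Vcam1, 0.956 for Icam1, 0.843 for Sele and 0.893 for Selp. Vcam1 had r = 0.324 with the lipid-associated macrophage list, and 0.85 with group means removed. The venule markers summed to 423 to 658 CPM in SD mCherry, 389 to 1009 in HFD mCherry, 1058 to 1531 in HFD Tert and 708 to 2290 in HFD TertCi. The genes most correlated with Vcam1 were Rnd1 (r = 0.989), Nupr1 (0.980) and Neurl3 (0.978). What part the number of venule cells, or of other cell types, had in these levels was not tested.

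Selplg (chr5:113818536-113832644, minus strand) codes for the selectin ligand on white blood cells and had, of the 9 members, the largest ratio of the highest to the lowest group mean (6.61). In SD mCherry it stood at 19.9, 19.1 and 9.15 CPM, in HFD mCherry at 52.0, 143 and 124, in HFD Tert at 17.4, 10.9 and 53.6, and in HFD TertCi at 26.3, 40.3 and 28.2. HFD mCherry was above SD mCherry and HFD TertCi in every library. HFD Tert overlapped both diet controls, since replicate 27 was above HFD mCherry replicate 15 while replicates 25 and 26 lay within the SD mCherry range.

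HFD mCherry was 6.62-fold above SD mCherry in Selplg (log2 fold change 2.73 ± 0.61, adjusted p = 0.0687 in edgeR), which did not pass. It passed with DESeq2 (adjusted p = 0.000387), and in edgeR without HFD mCherry replicate 15 (adjusted p = 0.016), with Crisp1 presence as a factor (0.0209) and with the epithelial level as a covariate (0.00361). Against HFD mCherry the log2 fold change was -1.96 ± 0.59 in HFD Tert (adjusted p = 0.204) and -1.75 ± 0.58 in HFD TertCi (adjusted p = 0.242), neither of which passed in edgeR. In HFD Tert it passed with DESeq2 (adjusted p = 0.0295), in HFD TertCi it did not (adjusted p = 0.0680), and with the epithelial level as a covariate it passed in both (adjusted p = 0.00309 and 0.0246). With that covariate 1238 and 649 genes were called, and without it 0 and 2. The knock-in groups differed from each other by -0.21, with an interval from -1.47 to 1.05.

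Selplg moved with the macrophage markers, all 12 of which were tested (r = 0.975, and 0.968 with group means removed). The 3 genes most correlated with it were Ptprc (r = 0.992), the pan-leukocyte antigen CD45, Itgb2 (0.987), the integrin chain that binds Icam1, and Nckap1l (0.985), a blood-cell actin regulator. Ptprc stood at 29.6 ± 9.75 CPM in SD mCherry and 145 ± 62.9 in HFD mCherry, with 46.8 ± 39.8 in HFD Tert and 44.6 ± 9.78 in HFD TertCi (SD, n = 3). Neutrophil markers, of which 4 of 8 were tested, summed to at most 20.6 CPM and T cell markers (8 of 9 tested) to at most 25.5 CPM in any library. Relative to the mean log2 CPM of the macrophage list, Selplg was -2.11 to -1.38 in SD mCherry, -1.22 to -1.01 in HFD mCherry, -1.63 to -1.14 in HFD Tert and -1.10 to -0.93 in HFD TertCi. Selplg also had r = 0.919 with the dendritic cell list (0.972 with group means removed). With the adipose progenitor list r was 0.9 (0.834 with group means removed) and with the endothelial list 0.505 (0.787). With the epididymis and epithelium list r was -0.578 (-0.875 with group means removed). The part of macrophage number, or of the other cell types, in the Selplg level was not tested.

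Read over the list, few members passed a test in edgeR. In the diet comparison 0.0479% of the 16713 genes were called; 1 of the 9 members was, Alcam, which this contrast chose, and 0 of the other 8. At an unadjusted p under 0.05, 4 of the other 8 stood (Icam1, Icam2, Selplg and Jam2) against 24.1% of all genes, and DESeq2 called 3 of them (Icam1, Selplg and Jam2) against 9.68% of the 20547 genes it tested. Libraries of HFD mCherry lay wholly above SD mCherry in 4 of 9 members with Alcam counted, and in 13.9% of all genes. The median log2 fold change was 1.09 with Alcam and 1.06 over the other 8 members, beside -0.08 over all genes. Because the other 8 were listed with earlier results of these data known, their counts beside all genes are a description.

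Against HFD mCherry, edgeR called 0 of 9 members in HFD Tert and 0 in HFD TertCi, where 0% and 0.012% of all genes were called. Unadjusted p was under 0.05 in 2 members each (Alcam and Selplg), against 16.4% and 14.7% of all genes, and DESeq2 called 2 members (Alcam and Selplg) and 1 member (Alcam), against 3.95% and 2.92% of genes. HFD Tert lay wholly below HFD mCherry in 1 member, Alcam, and in 11.1% of all genes. HFD TertCi lay wholly below it in 2, Alcam and Selplg, and in 12% of all genes. The members' medians were 0.11 and 0.34, beside -0.05 and -0.04 over all genes. Both comparisons and the diet comparison share the 3 HFD mCherry libraries.

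Between HFD Tert and HFD TertCi, edgeR and DESeq2 each called 0 of 9 members; edgeR called 0% of all genes and DESeq2 called 11 genes (0.0535%). Alcam alone had an unadjusted p under 0.05, as 1.36% of all genes did, and alone did not overlap, being higher in HFD Tert as 2.55% of all genes were. For the abundant members the interval of the log2 difference was wide, from -1.75 to 0.99 for Vcam1 and from -1.26 to 0.78 for Icam1, so effects of up to those sizes were not detectable with 3 libraries a group.

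The knock-in groups were also set against the standard diet group. HFD Tert lay wholly above SD mCherry in 7 of 9 members with Alcam counted (each but Selplg and Madcam1), against 11.3% of all genes. HFD TertCi did in 6 (Vcam1, Icam1, Icam2, Jam2, Selp and Selplg), against 10.3%. Alcam was chosen with these SD mCherry libraries, so its part in the counts given here is a description. The medians of the log2 difference were 1.19 and 1.37 (1.26 and 1.38 without Alcam), beside -0.06 and -0.08 over all genes. The largest member difference was that of Icam1, 1.58 ± 0.47 in HFD Tert and 1.82 ± 0.48 in HFD TertCi (adjusted p = 0.180 and 0.243). In these comparisons edgeR called 0 members and 0% of all genes, 5 and 6 members had an unadjusted p under 0.05 (15.8% and 14.7% of all genes), and DESeq2 called 2 members in each (Alcam and Icam1, and Icam1 and Selp), against 4.76% and 3.39% of genes. Endothelial markers were also higher in these groups, at 2714 to 5976 CPM in HFD Tert and 2780 to 6007 in HFD TertCi beside 1123 to 1598 in SD mCherry, and their part in the members' levels was not tested.

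**Figure D4:**
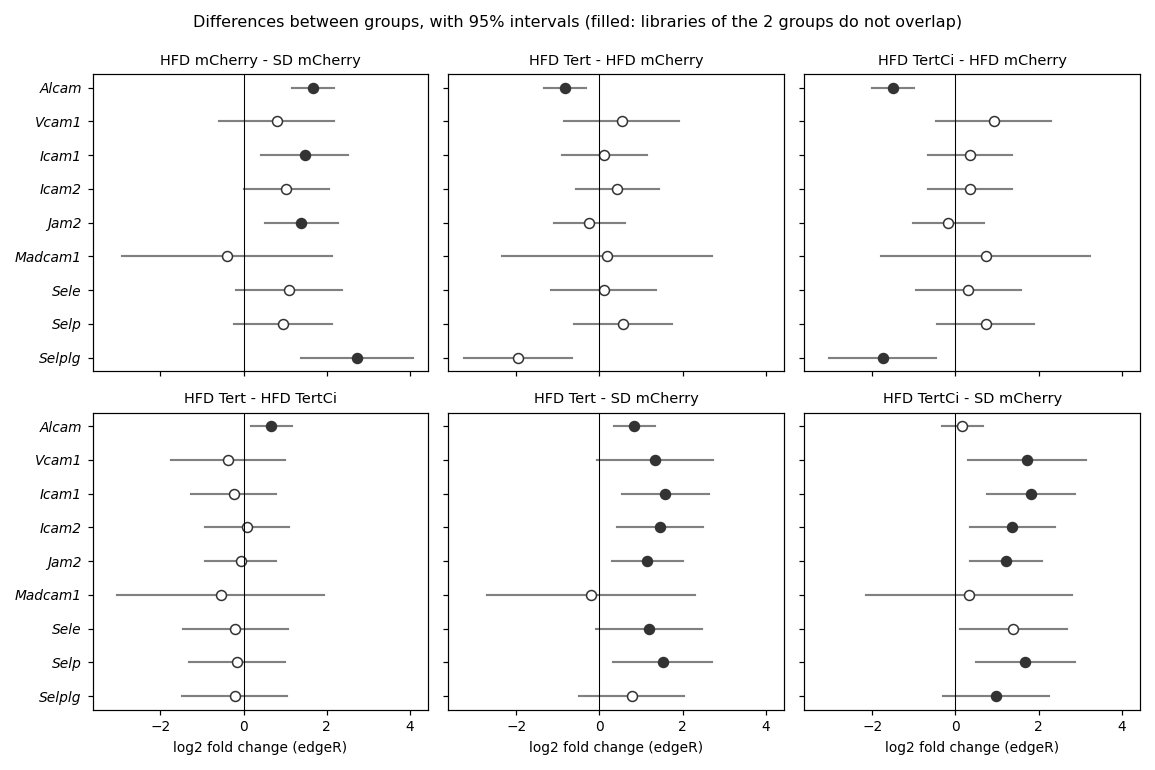
Log2 fold change of each member (edgeR) in the 6 comparisons of groups; bars are 95% intervals and filled points mark members whose libraries did not overlap between the groups. Alcam, whose diet value is a description, was separate in 5 of the 6 panels and not between HFD TertCi and SD mCherry, while intervals of Madcam1 span zero throughout.

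The members were also set beside the presence of Crisp1 RNA. Crisp1 did not sort the libraries by the mean log2 CPM of the whole epididymis and epithelium list. That mean was 4.59 in SD mCherry replicate 2, without Crisp1, and 2.78 in HFD mCherry replicate 17, with Crisp1. It was highest in HFD mCherry replicate 15, at 9.22. Among the 8 libraries with Crisp1, Alcam averaged 18.8 CPM for SD mCherry, 64.0 for HFD mCherry, 41.2 for HFD Tert and 21.7 for HFD TertCi (n = 2 each), and the 4 libraries without it stood at 25.7, 73.3, 31 and 27.7 CPM in the same order of groups. The highest level was in HFD mCherry and the next in HFD Tert in both sets. Selplg averaged 14.5, 97.7, 14.2 and 27.2 CPM with Crisp1 and was 19.1, 124, 53.6 and 40.3 CPM without it. Vcam1 was 610, 885, 1193 and 1127 CPM with Crisp1, and 622, 1441, 2260 and 3802 CPM without it. Vcam1, Icam1, Sele and Selp each were highest in the library without Crisp1 in the 3 high-fat diet groups, and not in SD mCherry. Pearson's r with the epididymis and epithelium list, of which 13 of 14 genes were tested, was -0.73 for Vcam1, -0.69 for Selp and -0.79 for Jam2. With the mean level of that list as a covariate in edgeR, the diet log2 fold change was 0.10 for Vcam1, 0.40 for Sele and 0.36 for Selp, where it was 0.80, 1.09 and 0.95 without the covariate. It was 0.97 for Icam1, 0.62 for Icam2, 1.01 for Jam2 and 2.17 for Selplg, and of these Jam2 and Selplg passed (adjusted p = 0.0149 and 0.00361). For diet the fit with this covariate called 1203 genes, where the fit without it called 8.

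Of the 14 genes listed as leukocyte counter-receptors, most are partners of the members on white blood cells. In edgeR 0 of the 14 were called in any of the 6 comparisons, where at most 0.0479% of all genes were called. In the diet comparison 13 of 14 were higher, with a median log2 fold change of 1.26 and a smallest adjusted p of 0.0659, and 8 had an unadjusted p under 0.05, against 24.1% of all genes. In HFD Tert 11 and in HFD TertCi 13 of the 14 were lower than in HFD mCherry, with medians of -1.18 and -0.62. DESeq2 called 7 of the 14 for diet, all higher, against 9.68% of genes. Against HFD mCherry it called 4 in HFD Tert and 3 in HFD TertCi, all lower, against 3.95% and 2.92% of genes. It called 1 higher in each knock-in group against SD mCherry (4.76% and 3.39% of genes) and 0 between the knock-ins. The 12 macrophage markers were all higher in the diet comparison (median 2.26) and all lower in both knock-in groups (medians -1.81 and -1.89), and their part in the counter-receptor levels was not tested. Cd44, a receptor for hyaluronan and E-selectin, stood at 125 ± 31.5 CPM for SD mCherry, 893 ± 476 for HFD mCherry, 406 ± 233 for HFD Tert and 384 ± 237 for HFD TertCi (SD, n = 3). Pecam1, which both endothelium and leukocytes carry, followed another order, at 220 ± 48.1, 477 ± 153, 707 ± 252 and 736 ± 366 CPM. Itgb1, widely expressed, ranged only from 679 ± 152 CPM in SD mCherry to 1077 ± 106 in HFD Tert.

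Among 23 other adhesion and transmigration molecules 21 were tested in edgeR, and 0 were called in any comparison. The median log2 fold change was 0.43 for diet, 0.52 for HFD Tert and 0.29 for HFD TertCi against HFD mCherry. Of the 22 present in the counts, DESeq2 called 3, 2 and 3 in these comparisons, all higher. Cdh5, the cadherin of endothelial junctions, stood at 167 ± 31.3 CPM in SD mCherry and at 525 ± 164, 566 ± 244 and 556 ± 177 in HFD mCherry, HFD Tert and HFD TertCi. Vwf, the platelet-binding protein of endothelium, was at 167 ± 33.6 and 194 ± 109 CPM on the 2 diets in mCherry mice, and at 456 ± 87.8 in HFD Tert and 513 ± 315 in HFD TertCi. Cd34 had means from 326 to 553 CPM.

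The 10 enzymes that build selectin ligands include the fucosyl-, sialyl- and sulfotransferases that modify Selplg. In edgeR they had 0 calls and medians of 0.41, 0.13 and -0.05 in the same order of comparisons. DESeq2 called 1 higher for diet, 1 lower in HFD Tert and 0 in HFD TertCi. Tpst2, which sulfates tyrosines of Selplg, stood at 335 CPM in HFD mCherry replicate 15 and at 59.2 and 55.8 in replicates 17 and 20, so 1 library sets the group's mean. Its relative Tpst1 stood at 46.0 ± 11.7 CPM in SD mCherry and 122 ± 50 in HFD mCherry. B4galt1 had group means from 236 to 271 CPM.

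Of 20 cytokine and NF-kB genes that are known to induce or restrain Icam1, Vcam1 and Sele, 18 were tested in edgeR. It gave 0 calls and medians of 0.91 for diet, -0.41 for HFD Tert and -0.29 for HFD TertCi. In the diet comparison 15 of 18 were higher and 11 had an unadjusted p under 0.05, against 24.1% of all genes. DESeq2 called 8 of the 20 for diet, all higher, against 9.68% of genes, and 0 in either knock-in group against HFD mCherry. Il6, a cytokine gene, stood at 413 ± 88.7 CPM for SD mCherry, 1253 ± 659 for HFD mCherry, 1268 ± 580 for HFD Tert and 1055 ± 569 for HFD TertCi (SD, n = 3). Nfkbia, the inhibitor that NF-kB itself induces, had the same order of SD mCherry below the rest, at 926 ± 179, 1632 ± 682, 1860 ± 732 and 1908 ± 934 CPM. Tnfaip3, another feedback inhibitor, was at 600 ± 115, 1442 ± 701, 1068 ± 489 and 1210 ± 606 CPM. HFD mCherry replicate 15 was the lowest library of its group in all 3.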

How the data were processed

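Poly-T selected RNA was sequenced in 12 libraries. Raw counts of reads per gene symbol were deposited for each library, per the file headers. They were made with featureCounts 1.6.4 on build mm10, per the submitters' processing notes. The gene annotation and strand setting are not given in the sources used here. Groups and replicate numbers came from the labels. Counts were used as deposited. In edgeR 4.0.16 (R 4.3.3), genes were kept by filterByExpr (16713), scaled by TMM and fitted in 1 robust quasi-likelihood model of the 12 libraries with no covariate. Tests were 2-sided, and a gene was called at a Benjamini-Hochberg adjusted p under 0.05. RPKM used exon lengths of GENCODE M21 (GRCm38), which gave gene positions and had 16028 of the tested symbols. Correlations used log2 CPM with a prior count of 2. The pipeline was tested on simulated data whose spread was set below that estimated from these libraries. That test does not show its power at the spread of these data.

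The members, the 4 adhesion gene lists and the 16 marker lists were chosen with earlier results of these data known. Named genes are the 9 members, the genes most or least correlated with Alcam (5 and 3), the 3 most correlated with Vcam1 and Selplg, and of each adhesion list the 3 of highest mean CPM and any called gene. The level of a marker list is the mean log2 CPM or summed CPM of its tested genes. Alternatives were DESeq2 1.42.0, no count filter, library size without TMM, only the groups compared, the epithelial list as a covariate and leaving out each library. Fits that use the presence of Crisp1, and correlations with group means removed, were chosen after seeing the data.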

Additional observations from a re-analysis of the deposited data

How the results depend on the processing

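No paired analysis was possible because every group has replicate numbers of its own. Of the member log2 fold changes, all 54 kept direction and call with no count filter, 53 of 54 with library size alone (which moved the median of all genes by -0.2 in the diet comparison), 44 of 54 with DESeq2 (10 now called), 49 of 50 with only the groups compared, 44 of 54 with the epithelial covariate and 51 of 54 with Crisp1 presence as a factor. DESeq2 called 1988 genes for diet, 811 for Tert, 599 for TertCi, 11 between the knock-ins, 978 for Tert against SD mCherry and 696 for TertCi against SD mCherry, where edgeR called 8, 0, 2, 0, 0 and 0. Members called with DESeq2 numbered 4, 2, 1, 0, 2 and 2. With the epithelial covariate 1203, 1238, 649, 0, 0 and 154 genes and 3, 2, 2, 0, 0 and 1 members were called. With library size alone 0 members were called for diet and 1 gene for TertCi. With only the groups compared, or only the libraries with Crisp1, diet gave 0 genes and 0 members and TertCi 0 genes, and with Crisp1 presence as a factor diet gave 1508 genes and 4 members. Alcam's diet difference, which chose it, lost its call under library size alone, only the groups compared, only the libraries with Crisp1, and without 1 of 4 libraries (SD mCherry replicates 1 or 2, HFD mCherry replicates 17 or 20), at log2 values of 1.45 to 1.84.

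Leaving out 1 library moved the genes called for diet from 0 to 2082 and the members from 0 to 4, both highest without HFD mCherry replicate 15. It moved the genes called from 0 to 51 for Tert and from 0 to 198 for TertCi (highest without HFD mCherry replicate 15), from 0 to 484 for Tert and from 0 to 326 for TertCi against SD mCherry (highest without SD mCherry replicate 3), and the TertCi members from 0 to 1. 

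Directions turned in differences that were not called. With the epithelial covariate Icam2 was at -0.24 between the knock-ins, and Selplg at -0.11 and Madcam1 at 0.14 for Tert against SD mCherry. With only the Crisp1 libraries the knock-ins differed by 0.09 in Vcam1, -0.2 in Icam2, 0.02 in Sele, 0.06 in Selp and 0.11 in Madcam1, Selplg was at -0.04 for Tert and Madcam1 at -0.57 for TertCi against SD mCherry. With 1 library left out, log2 fold changes for Tert against HFD mCherry ran from -0.22 to 0.35 in Icam1, -0.06 to 0.74 in Icam2, -0.32 to 0.48 in Sele and -0.31 to 0.46 in Madcam1. For TertCi they ran from -0.09 to 0.67 in Icam1, -0.14 to 0.68 in Sele and -0.51 to 0.11 in Jam2. Between the knock-ins they ran from -0.76 to 0.46 in Vcam1, -0.56 to 0.2 in Icam1, -0.4 to 0.4 in Icam2, -0.58 to 0.24 in Sele, -0.53 to 0.29 in Selp, -1.15 to 0.16 in Selplg and -0.35 to 0.27 in Jam2. Against SD mCherry they ran from -0.87 to 0.24 for diet, -0.72 to 0.42 for Tert and -0.14 to 0.97 for TertCi in Madcam1, and from -0.18 to 1.12 for Tert in Selplg. The cause was not tested. For TertCi against HFD mCherry, Vcam1 ran from 0.07 to 1.26 and Selp from 0.27 to 1.09, both lowest without HFD TertCi replicate 31. Madcam1 had 0 to 16 counts in a library.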

Other observations

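The other 8 marker lists, given here as summed CPM, also varied between groups. Lipid-associated macrophage markers (8 of 8 tested) summed to 462 to 872 CPM in SD mCherry, 1822 to 7042 in HFD mCherry, 617 to 2543 in HFD Tert and 588 to 1864 in HFD TertCi. Selplg had r = 0.869 with this list and 0.919 with the dendritic cell list (7 of 7 tested), which ran from 48.1 to 197 CPM over all libraries. Mesothelial markers (7 of 8 tested) summed to 320 to 352 CPM in HFD mCherry and to 519 or more in each library of the other groups. Adipocyte markers (8 of 8 tested) summed to 24.5 to 33.8 CPM in HFD mCherry, and to 42.5 to 108 CPM in the others. Lymphatic endothelial markers (7 of 7 tested) ran from 159 to 681 CPM and B cell markers (7 of 7 tested) from 4.46 to 34.3 CPM over the 12 libraries. Pericyte and smooth muscle markers (9 of 9 tested) ran from 1804 to 15415 CPM and skeletal muscle markers (5 of 6 tested) from 2.64 to 812 CPM.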
